A study of Mus musculus with 12 samples.

Results

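Developmental transcription factor genes were examined for their position relative to c-Fos binding sites in excitatory neurons of the mouse hippocampus. Members were the protein-coding genes of 15 families named by symbol: Hoxa, Hoxb, Hoxc, Hoxd, Evx, Pax, Lhx, Nkx, Pitx, Irx, Fox, Sox, Tbx and Gata genes and the sine oculis homeobox genes, taken where the whole symbol was the family name and its number (for Fox, a letter and a number). This gave 169 of 21523 protein-coding genes. The families were put together with the peak positions already known, so the counts and widths below describe these genes and were not tested.

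The study profiled c-Fos by CUT&RUN, in which an antibody guides a nuclease to release bound DNA, in GFP-sorted nuclei of CA1, a pyramidal cell field. Mice were C57BL/6 of 3 to 4 weeks, carried CaMK2a-Cre/+ and LSL-Sun1-GFP/+, and received kainic acid, an agonist of glutamate receptors that provokes strong firing, or PBS for 2 to 3 h. The tag stays on in any cell in which CaMK2a-driven Cre was ever active, so the gate marks that lineage. Each of 4 groups (c-Fos or rabbit IgG antibody, kainic acid or PBS) had 3 replicates, and the 3294 peaks used here come from 1 list that describes itself as c-Fos over IgG, replicated, after kainic acid. The list holds positions only. Values per replicate, read depth and PBS peaks were not analysed here, and the sorted cell type could not be checked against marker expression.

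The 15 families encode DNA-binding proteins that set the body plan and cell types of the embryo. Hox genes, arranged in clusters, pattern the body from hindbrain to tail, Pax, Lhx, Nkx, Irx and sine oculis homeobox genes divide the neural tube and organs into territories, and Tbx, Gata, Fox and Sox genes act in heart, gut, skeleton, germ cells and nervous system. In differentiated cells many of them are silent, with CpG-rich promoters held by Polycomb repressors, while a few, such as Foxp1 and Sox9, stay active in forebrain neurons or in glia. c-Fos pairs with Jun proteins to form AP-1, which binds the letters TGANTCA.

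Peaks lay close to 23 of the 169 genes (13.6%), with a midpoint within 10 kb of either gene end. The same distance took in 3.92% of all protein-coding genes. Within 100 kb there was a peak for 59 genes (34.9%), against 21.2% of all protein-coding genes. Shared peaks counted once, 29 distinct peaks lay within 10 kb of a member and 52 within 100 kb. The remaining 110 genes had none within 100 kb, and the farthest was Sox3, a neural progenitor gene on the X chromosome, at 8650 kb.

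**Figure D1:**
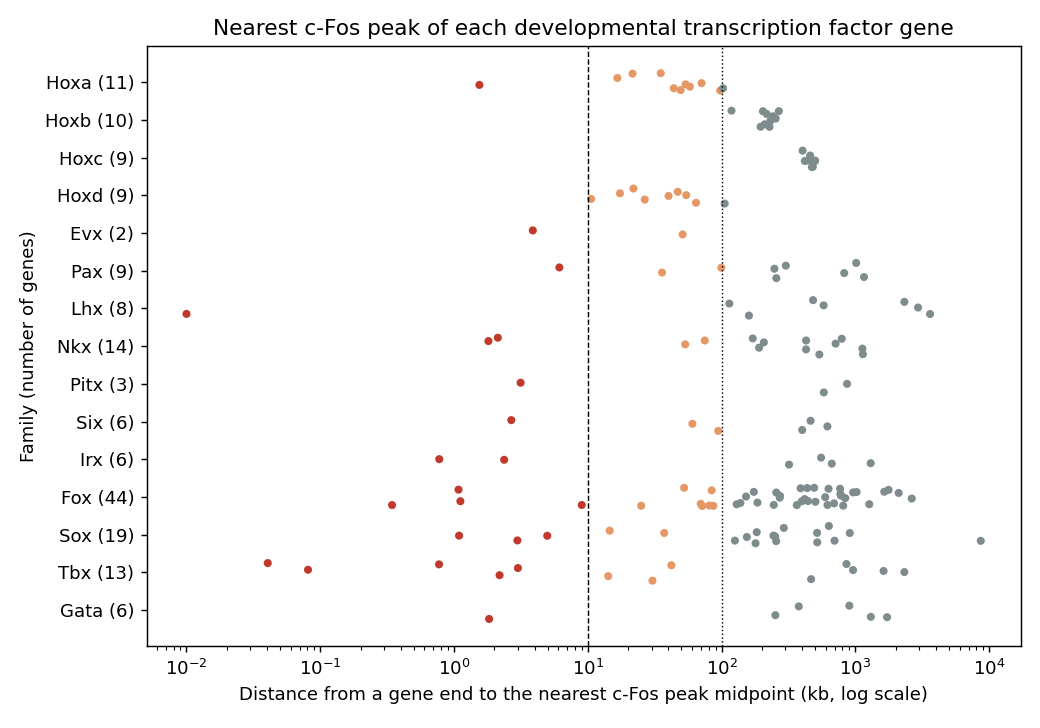
Each point is 1 of the 169 genes, placed by the distance in kb (log axis) from a gene end to the nearest c-Fos peak midpoint and grouped in rows by family, with random vertical scatter. Dashed and dotted lines mark 10 and 100 kb; the 23 red points lie within 10 kb, and no Hoxb or Hoxc gene lies within 100 kb.

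Promoter sequences were taken from RefSeq (GRCm38.p6, the same assembly as mm10). There was an entry for 112 of the 169 genes. Each window spans 250 bases before and 50 after a transcript start. A peak overlapped 5 of their 136 windows (3.68%), against 1.12% of windows of protein-coding genes and 1.04% of all 32619 windows in the table. The 5 windows under a peak belong to Lhx8, Tbx20, Tbx18, Foxd1 and Nkx2-3. For these, the only member windows in the table under c-Fos peaks, the 250 bases before the start are shown. Of the 23 genes with a peak within 10 kb, 10 had no entry, so their promoters could not be scored. Capitals mark CpG dinucleotides.
Lhx8, chr3:154330561-154330810, minus strand: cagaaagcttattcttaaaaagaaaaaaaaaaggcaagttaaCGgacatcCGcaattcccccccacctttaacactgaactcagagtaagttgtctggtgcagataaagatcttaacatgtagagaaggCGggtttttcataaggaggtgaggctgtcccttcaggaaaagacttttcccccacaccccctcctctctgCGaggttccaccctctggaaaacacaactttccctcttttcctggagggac
Tbx20, chr9:24774304-24774553, minus strand: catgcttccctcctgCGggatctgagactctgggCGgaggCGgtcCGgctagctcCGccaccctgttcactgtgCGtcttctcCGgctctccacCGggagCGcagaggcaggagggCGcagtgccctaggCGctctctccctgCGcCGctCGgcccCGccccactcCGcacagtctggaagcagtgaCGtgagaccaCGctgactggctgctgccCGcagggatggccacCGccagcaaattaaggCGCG
Tbx18, chr9:87731261-87731510, minus strand: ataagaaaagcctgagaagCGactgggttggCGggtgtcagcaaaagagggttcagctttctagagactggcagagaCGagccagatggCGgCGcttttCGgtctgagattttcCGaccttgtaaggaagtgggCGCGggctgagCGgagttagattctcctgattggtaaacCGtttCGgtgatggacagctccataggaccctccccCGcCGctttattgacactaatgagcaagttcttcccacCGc
Foxd1, chr13:98353995-98354244, plus strand: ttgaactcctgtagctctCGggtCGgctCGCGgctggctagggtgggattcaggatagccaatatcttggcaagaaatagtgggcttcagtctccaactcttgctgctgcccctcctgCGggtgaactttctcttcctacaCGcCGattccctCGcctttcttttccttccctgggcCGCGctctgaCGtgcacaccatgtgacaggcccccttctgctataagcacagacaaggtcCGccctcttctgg
Nkx2-3, chr19:43612075-43612324, plus strand: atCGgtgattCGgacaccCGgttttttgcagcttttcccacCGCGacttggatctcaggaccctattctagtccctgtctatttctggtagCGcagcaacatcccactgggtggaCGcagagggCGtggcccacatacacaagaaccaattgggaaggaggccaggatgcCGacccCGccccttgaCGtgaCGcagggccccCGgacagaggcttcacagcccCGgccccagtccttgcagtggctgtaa

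The peaks covered all 250 printed bases at Lhx8, Tbx20, Tbx18 and Foxd1, and 248 of them at Nkx2-3. CpG number differed widely among them, from 4 at Lhx8 to 22 at Tbx20, with 15 at Tbx18, 14 at Nkx2-3 and 12 at Foxd1. The AP-1 letters TGANTCA and the cAMP response element TGACGTCA, were searched in every window on both strands; each is its own reverse complement as a pattern, and no match of one overlapped one of the other. None of the 13 windows of members with a peak within 10 kb held either string. A peak spans many more bases than a window, so this says only that these letters were not in these windows.

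Over all member windows, 7 of 136 (5.15%) held TGANTCA and 2 (1.47%) held TGACGTCA. The shares were 7.04% and 2.26% in windows of protein-coding genes, and 7.85% and 1.80% in all windows. The matches in member windows belonged to 9 genes, and none of these matching windows was under a peak. At Hoxd11 the nearest peak lay 21.9 kb away and at Pax6 99.5 kb away, while the other 7 genes had no peak within 100 kb. For Hoxd11 and Pax6, and for Lhx6, a gene of forebrain interneurons with its nearest peak at 2320 kb, the match is shown in capitals with its flanks.
Hoxd11, chr2:74679527-74679555, plus strand: aataaatgaaaTGACTCAgaatcccttcc
Pax6, chr2:105668809-105668838, plus strand: tctggccgccgTGACGTCAtccgcgcccgg
Lhx6, chr2:36105572-36105600, minus strand: ttggtcacgcaTGACTCAtcttgaacgga

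Before the start, the match ends 14 bases away at Hoxd11, 69 at Pax6 and 175 at Lhx6. These 3 of the 9 matches are shown as examples. Over the whole table the strings were more frequent under peaks: of 338 windows that a peak overlapped, 17.5% held TGANTCA and 7.40% held TGACGTCA.

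CpG content was higher in member windows than in the table as a whole. The median ratio of observed to expected CpG was 0.680 in member windows (quartiles 0.466 and 0.819), against 0.574 in windows of protein-coding genes and 0.387 in all windows. It was 0.772 in the 13 windows of genes with a peak within 10 kb and 0.672 in the 123 windows of the others. The 5 windows under a peak ranged from 0.241 at Lhx8 to 0.755 at Tbx18, with 0.745 at Tbx20, 0.624 at Foxd1 and 0.559 at Nkx2-3. The window of Lhx8 lay below the median of all windows, and the other 4 lay above it. All 5 lay below 0.790, the median of the 338 windows in the table that a peak overlapped.

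**Figure D2:**
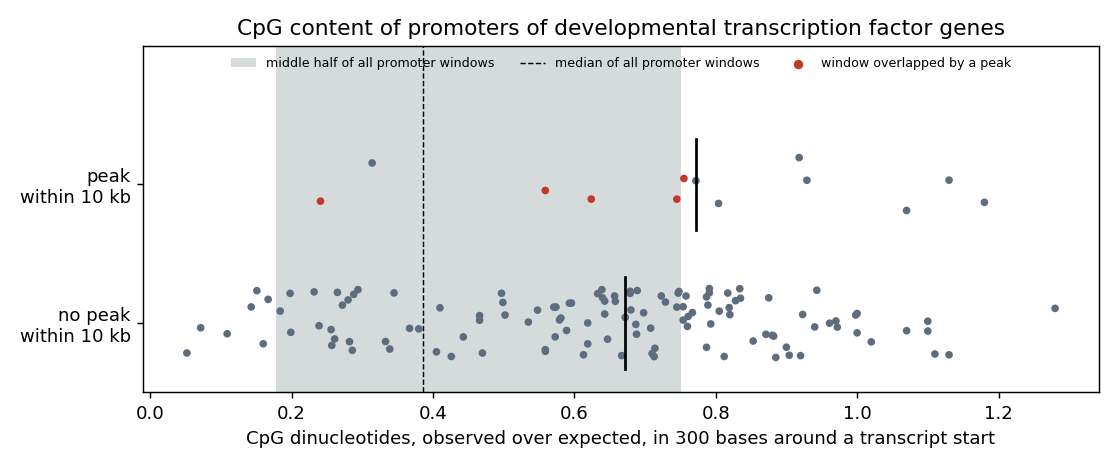
Points are promoter windows of members, placed by observed over expected CpG (no unit) in rows by whether the gene had a peak within 10 kb, with random vertical scatter; black bars are row medians and red points are the 5 windows that a peak overlaps. The grey band holds the middle of all windows in the table, from the lower to the upper quartile, and the dashed line is their median of 0.387, below both row medians of 0.772 and 0.672.

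The genes with the nearest peaks carried them directly over a gene end. Lhx8, a LIM homeodomain factor of forebrain cholinergic neurons, had a peak of 2437 bp (chromosome 3, 154329332 to 154331768) with its midpoint 10 bp inside the transcript start. Tbx18, a T-box factor of the epicardium and of mural cells, had a peak of 2444 bp (chromosome 9, 87730079 to 87732522) centred 40.5 bp upstream of its start. A further peak of 1920 bp lay 3.65 kb inside Tbx18, so that its start region held 2 peaks with 1505 bp between them.

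Tbx3, which acts in limb, mammary gland and the cardiac conduction system, had a peak of 1741 bp centred 81 bp inside a gene end (chromosome 5, 119669745 to 119671485). Tbx20, a heart muscle factor, had a peak of 3419 bp centred 0.772 kb inside its start (chromosome 9, 24771822 to 24775240). Tbx2, a repressor of the same subfamily as Tbx3, held a peak of 4225 bp wholly within the gene, covering 45.3% of its length (chromosome 11, 85833504 to 85837728). Its neighbour Tbx4, a hindlimb and lung gene on the plus strand, held another of 1567 bp, centred 2.19 kb inside its upstream end. The transcript start in the promoter table lay farther inside Tbx4, 8.21 kb from the midpoint of this peak.

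With these 5 genes, 5 of 13 Tbx members (38.5%) had a peak within 10 kb, against 3.92% of all protein-coding genes. This was the highest number of any family at that distance. Within 100 kb the family had 8 of 13 (61.5%), against 21.2%. The other 3 were Tbx21, Tbx19 and Tbx5. Tbx21, the T-bet gene of T helper cells, had its nearest peak at 14.2 kb. Tbx19, a pituitary factor, had peaks at 30.4 and 62.0 kb. Tbx5, a forelimb and heart gene, held a broad peak of 4238 bp inside the gene, 42.1 kb from an end.

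Fox genes formed the largest family. Of 44, 4 (9.09%) had a peak within 10 kb, against 3.92% of all protein-coding genes. Within 100 kb 11 of the Fox genes had one (25.0%), near the 21.2% of all protein-coding genes. Foxd1, a factor of kidney stroma and retina, stood out among them by having 3 peaks in a short stretch of chromosome 13. A peak of 2477 bp (98353351 to 98355827) covered its start, one of 2268 bp began 514 bp farther on and ran across the opposite gene end, and one of 1357 bp lay 7.36 kb beyond that end. Together they covered 79.1% of the gene.

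Foxa1, a pioneer factor of endoderm, also had 3 peaks (chromosome 12), of 2739, 1962 and 1736 bp. The widest, from 57540798 to 57543536, lay inside the gene, and the other two lay downstream of it at 1.11 and 3.61 kb. Only 303 and 647 bp separated these neighbours, so they could also be read as parts of 1 broad region; the list does not decide this. Foxb1, a factor of the hypothalamic mammillary body, had 1 peak of 2169 bp over 67.0% of the gene (chromosome 9, 69758776 to 69760944).

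Foxj2, a forkhead factor found in many tissues, differed from these. Its 3 peaks within 100 kb lay at 9000 bp, 29.3 kb and 55.2 kb, and none of them had Foxj2 as its nearest protein-coding gene. The peak at 9000 bp lay 8.82 kb from Slc2a3, which encodes a neuronal glucose transporter, and the one at 29.3 kb lay 96.5 bp from Necap1. Of the 29 peaks within 10 kb of a member, this was the only one whose nearest gene was not a member.

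Of the 14 Nkx homeobox genes, 2 (14.3%) had a peak within 10 kb, both broad, against 3.92% of all protein-coding genes. Within 100 kb 4 of the 14 (28.6%) had a peak, against 21.2% of all protein-coding genes, and the other 10 had none. Nkx6-1, needed for motor neurons and pancreatic beta cells, had one of 5260 bp that covered 80.3% of the gene (chromosome 5, 101658362 to 101663621), the 16th widest of the list. Nkx2-3, a spleen and gut factor, had one of 4241 bp that stopped at its transcript start (chromosome 19, 43608082 to 43612322), the 26th widest.

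Irx1 and Irx5, Iroquois patterning genes, had peaks of 2033 bp (0.775 kb inside a gene end) and 3037 bp (2.37 kb outside). With these, 2 of 6 Irx genes (33.3%) had a peak within 10 kb, against 3.92% of all protein-coding genes. The other 4 Irx genes had none within 100 kb, so the share at that distance was also 33.3%, against 21.2% of all protein-coding genes. Pax3, a neural crest and dorsal neural tube gene, had a peak of 2589 bp at 6.12 kb and one of 1043 bp inside the gene.

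Gata6, a heart and endoderm gene, had a peak of 3075 bp at 1.83 kb (chromosome 18, 11049145 to 11052219). The other 5 Gata genes had none within 100 kb. At both distances the family share was thus 1 of 6 (16.7%). Of all protein-coding genes, 3.92% had a peak within 10 kb and 21.2% within 100 kb. In the Sox family, 3 of 19 genes (15.8%) had a peak within 10 kb, against 3.92% of all protein-coding genes, and these peaks were narrower. Sox9, a factor of cartilage and astrocytes, had a peak of 1473 bp at 1.09 kb, and Sox1, a neural progenitor factor, one of 1395 bp at 4.97 kb. Sox30, a gene of sperm development, had peaks of 767 and 1645 bp at 2.98 and 4.38 kb, 198 bp apart, and one more at 39.9 kb. None of these Sox peaks reached 2 kb.

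**Figure D3:**
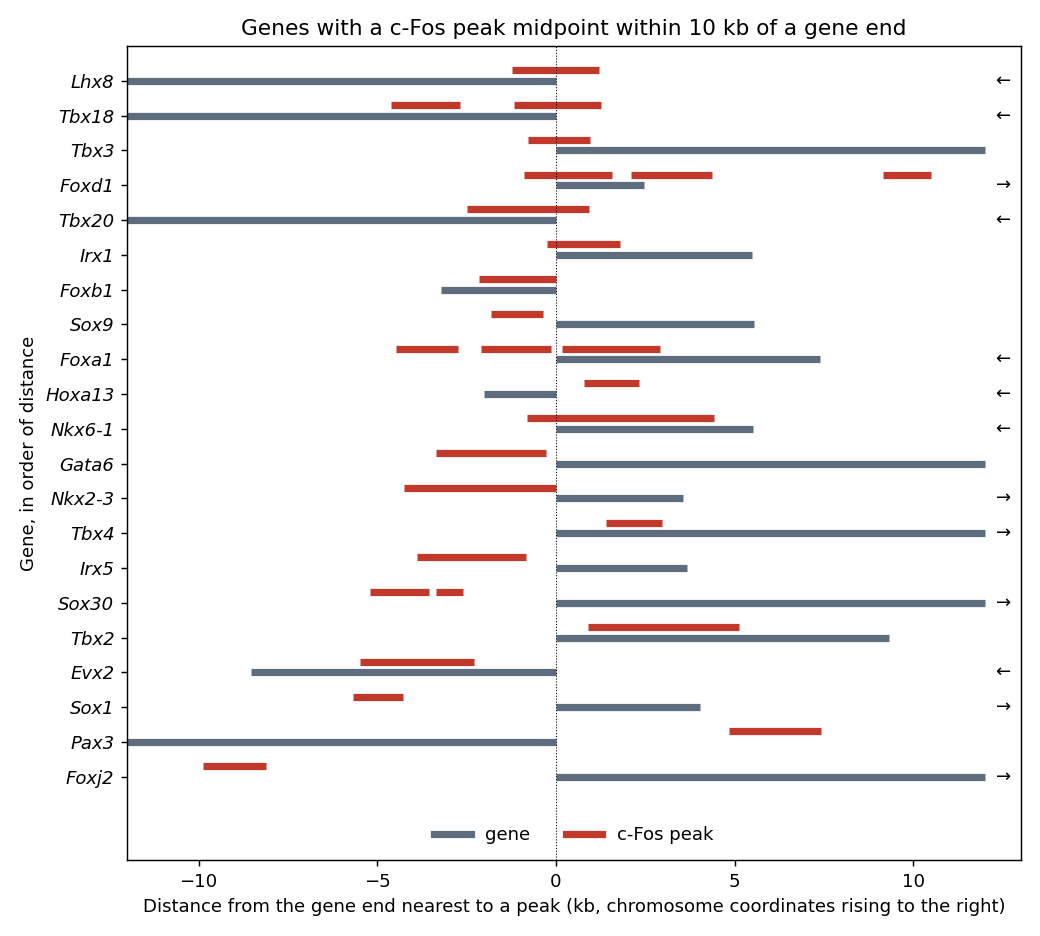
Each row is a gene with a peak midpoint within 10 kb (21 of the 23 are drawn), aligned at the gene end nearest to a peak; the horizontal axis is distance in kb with chromosome coordinates rising to the right. Grey bars are genes, cut at 12 kb, red bars above them are c-Fos peaks at their true width, and arrows give the direction of transcription where the promoter table holds it; the peaks at Nkx6-1, Foxd1 and Foxb1 span most of the gene.

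Across the 23 genes, the midpoint of the nearest peak lay inside the gene for 11 and outside it for 12. Strand was known for 13 genes. Of these, Tbx18, Hoxa13, Nkx2-3, Sox30, Sox1 and Foxj2 had the nearest peak upstream, Foxa1 had it downstream, and Lhx8, Foxd1, Tbx20, Nkx6-1, Tbx4 and Evx2 inside. The other 10, without a promoter entry, included Tbx3, Irx1, Foxb1, Sox9, Gata6, Irx5, Tbx2 and Pax3.

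Members lay in sparser surroundings than other genes. The median member had 3 other protein-coding genes within 100 kb, against 4 for all protein-coding genes, and members with a peak within 10 kb had 1. For 8 of these 23 (34.8%) there was no other gene within 100 kb, as for Tbx18, Tbx3 and Sox9, compared with 10.3% of the members without a near peak and 4.71% of all genes. All Hox genes except Hoxa13 were among the members without a near peak. They lie in clusters and so have neighbours, and the share without them was not worked out. Members were also short, with a median length of 6.63 kb against 17.4 kb.

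At the Hox clusters, many genes shared the same few peaks by distance. Within 10 kb, 1 of the 39 Hox genes (2.56%) had a peak, against 3.92% of all protein-coding genes. Within 100 kb 18 of the 39 (46.2%) had one, against 21.2%. Only 2 distinct peaks lay within 100 kb of any of the 39 Hox genes, each outside its cluster. At HoxA, a peak of 1550 bp (chromosome 6, 52261652 to 52263201) lay 1.55 kb upstream of Hoxa13, the distal limb and hindgut gene at the end of the cluster. It was within 100 kb of 10 of the 11 Hoxa genes and of Evx1, at 51.1 kb.

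At HoxD, a peak of 3186 bp (chromosome 2, 74656050 to 74659235) lay inside Evx2, a gene of distal limb and spinal cord, 1.91 kb from its transcript start, and covered 37.3% of it. It was within 100 kb of 8 of the 9 Hoxd genes, the nearest being Hoxd13 at 10.6 kb. In both clusters the peak sat at the end with the posterior genes. HoxB and HoxC had no peak within 100 kb: the nearest to Hoxb13 was at 118 kb and to Hoxc13 at 403 kb.

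**Figure D4:**
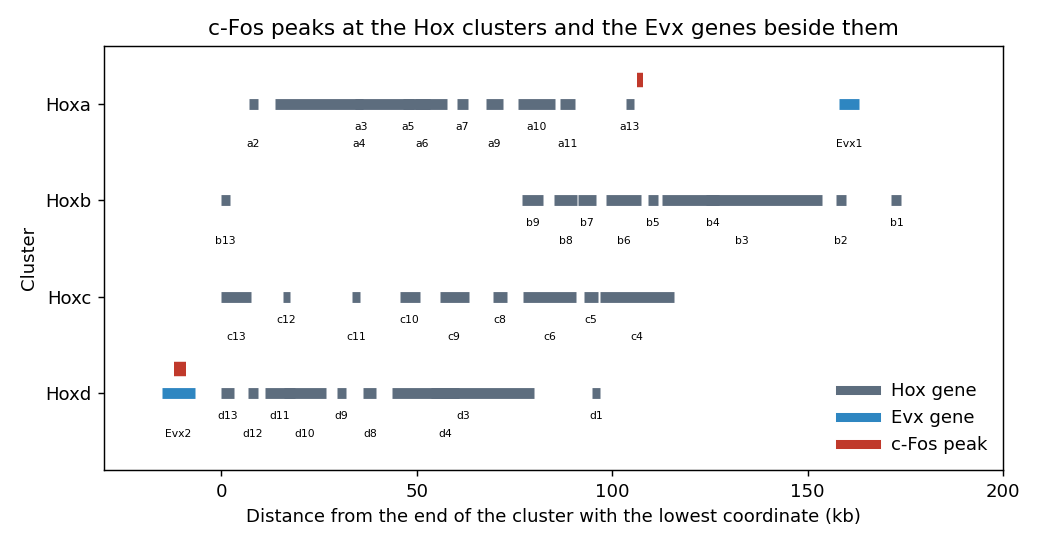
The 4 Hox clusters are drawn to scale in kb from the cluster end with the lowest coordinate, with Hox genes in grey (labels without the word Hox), Evx genes in blue and c-Fos peaks in red above them; 1 Hox gene is not drawn. HoxA has 1 peak beside Hoxa13, HoxD has 1 peak inside Evx2, and HoxB and HoxC have none.

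A further 36 genes had no peak within 10 kb but had one at 10 to 100 kb. Of these, 17 were the Hoxa and Hoxd genes just described. Among the other 19 were genes active in forebrain neurons. Sox5, a factor of deep-layer cortical neurons, held a peak of 1352 bp inside the gene, 14.6 kb from an end. Foxp1, a forkhead factor of hippocampal and striatal neurons, held one of 1610 bp at 52.4 kb from an end. Pax6, a cortical progenitor factor, had one of 848 bp at 99.5 kb. These 3 peaks were narrower than most peaks at the nearer genes, and for each the member was also the nearest protein-coding gene. In all, peaks covered 4670 bp of Foxp1 and 2594 bp of Sox5. Both genes thus held further peaks deeper inside, with midpoints more than 100 kb from either end, whose widths are not given here.

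Elsewhere another gene was often nearer to the peak. Of the 23 distinct peaks at 10 to 100 kb, 12 had a member as the nearest protein-coding gene, compared with 28 of the 29 peaks within 10 kb. Some such contrast follows from distance itself, and the same shares were not worked out for all genes. The peak 53.4 kb from Nkx3-2, a skeletal gene, for example lay 103 bp from an end of Rab28, and that 80.9 kb from Foxs1 lay 1.94 kb from Pdrg1. At the edges of the windows, Foxj2 (9000 bp) and Hoxd13 (10.6 kb) lay on either side of 10 kb, and Pax6 (99.5 kb) was the last gene inside 100 kb.

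Peaks near members were broad. The 29 within 10 kb ranged from 767 to 5853 bp with a median of 2268 bp (quartiles 1736 and 3037), and 17 of them (58.6%) were 2 kb or wider. Among all 3294 peaks the median was 1341.5 bp, and 14.4% were that wide. The 671 peaks within 10 kb of a gene end of other protein-coding genes had a median of 1404 bp, and 19.7% reached 2 kb.

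Peaks farther from the members were narrower. The 23 peaks at 10 to 100 kb had a median of 1288 bp (584 to 4238), and 2 of them reached 2 kb, those at Tbx5 and Tbx21. The 19 peaks with a midpoint inside a member had a median of 2437 bp. Seen from the other side, peaks within 10 kb of a member made up 0.880% of all peaks and 3.59% of the 474 peaks of 2 kb or more. Width was set by peak calling with settings not given in the sources used here. It is not a measure of how much c-Fos was bound.

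**Figure D5:**
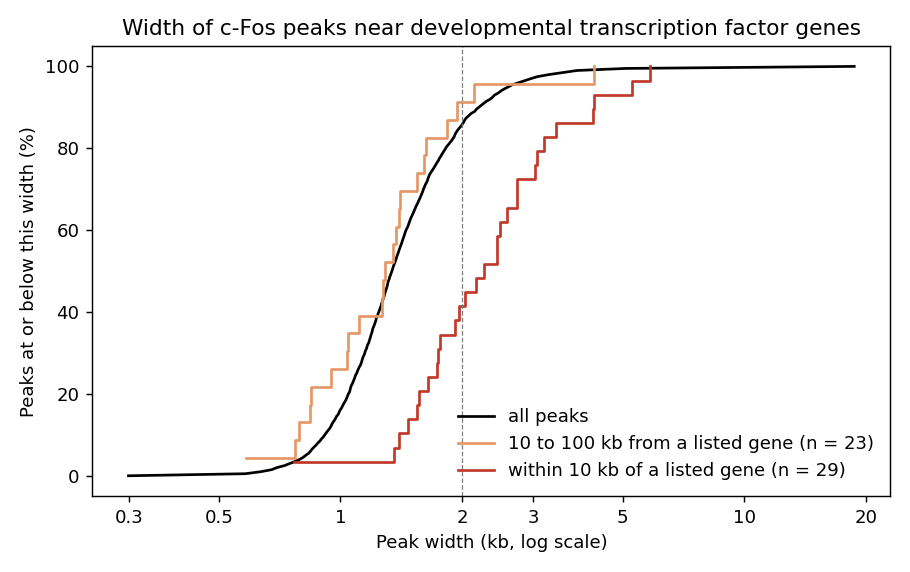
Curves give the percent of peaks at or below each width (kb, log axis) for all 3294 peaks in black, the 23 peaks at 10 to 100 kb from a member in orange and the 29 within 10 kb in red; the dashed line marks 2 kb. The red curve lies to the right, with a median of 2268 bp against 1341.5 bp for all peaks, whereas the orange curve stays close to the black one.

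By role, genes of organs outside the brain were among those with near peaks as well as neural genes. Of 41 heart, blood, gut, skeletal and other organ genes, 9 (22.0%) had a peak within 10 kb, among them Gata6, Nkx2-3 and Tbx20. Of 24 midbrain, hindbrain and spinal cord genes, 6 (25.0%) had one, among them Pax3, Evx2, Nkx6-1, Foxa1 and Foxb1. Of 12 forebrain genes, Lhx8 alone (8.33%) had one. Within 100 kb 5 of these 12 (41.7%) had a peak, against 21.2% of all protein-coding genes. The other 7, Lhx2, Lhx6, Nkx2-1, Six3, Foxp2, Lhx5 and Lhx9, had none at that distance. The share within 100 kb was 37.5% for midbrain, hindbrain and spinal cord genes and 29.3% for organ genes. It was 25.0% for neural Sox genes and 30.0% for widely expressed Fox genes. Within 10 kb, Sox1 and Sox9 of 12 neural Sox genes had a peak, and Foxj2 of 10 widely expressed Fox genes. The counts within 10 kb all stand beside 3.92% of protein-coding genes, and the lists were not compared with one another by a test.

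Developmental transcription factor genes of other families, which the symbol rule did not take, are given for comparison of values only. Of 61 such genes, 14 (23.0%) had a peak within 10 kb and 21 (34.4%) within 100 kb. The shares of all protein-coding genes were 3.92% and 21.2%. Their 17 distinct peaks within 10 kb had a median width of 2171 bp, and 11 (64.7%) were 2 kb or wider. The widest, 13651 bp, overlapped Sim1, a hypothalamic factor.

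Several of these were neural subtype genes. Isl1, a motor neuron and heart factor, had a peak of 3509 bp centred 0.120 kb inside an end, and Pou4f1, a sensory neuron factor, one of 2941 bp at 0.124 kb. Otx1 had one of 3563 bp at 0.629 kb, Zic2 one of 4355 bp at 2.31 kb and Otx2 one of 891 bp at 2.59 kb. Otx and Zic genes pattern the forebrain and midbrain, and their peaks lay inside the genes.

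Dlx2 (0.695 kb), Dlx1 (5.94 kb) and Dlx6 (2.56 kb), homeobox genes of interneurons, had peaks of 1947, 2022 and 2289 bp, and Nr2f2 one of 1100 bp at 4.89 kb. Hlx, Twist1, Meis1 and Prrx1, which act in gut, mesoderm and limb, had peaks of 2123, 4106, 4569 and 1110 bp at 1.20, 2.29, 4.83 and 7.74 kb. Sim1 completed the 14, with its peak centred 3.69 kb inside an end.

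Of 14 interneuron transcription factor genes, 4 of which are members, 5 (35.7%) had a peak within 10 kb, against 3.92% of all protein-coding genes. Lhx8 was the only member with one. The rest were Dlx1, Dlx2, Dlx6 and Nr2f2, already counted among the 14 of other families. They had 5 distinct peaks in all, as Dlx1 and Dlx2 shared the same 2. Of 10 astrocyte and oligodendrocyte transcription factor genes, 1 (10.0%) had a peak within 10 kb, Sox9, beside the same 3.92%. Within 100 kb 2 of these 10 (20.0%) had a peak, Sox9 and Nfib, near the 21.2% of all protein-coding genes. Sox10, Olig1, Olig2 and Nkx2-2 were among the 8 without one. Nuclei of those cell types would be expected to lack the CaMK2a-driven tag, and whether any were present among the sorted nuclei was not tested. Of 21 Polycomb group genes, whose products repress many of the members, 0 had a peak within 10 kb and 5 (23.8%) had one within 100 kb, against 21.2% of all genes.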

How the data were processed

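The authors deposited 1 peak list with chromosome, start and end of each peak, attached to 1 kainic acid c-Fos sample and treated as a list of that group. The tools SEACR 1.1, bedtools 2.27.1, Bowtie2 2.2.9 and Trimmomatic 0.36 and the builds mm10 and sacCer3 are named per the submitters' processing notes. Their order, settings and threshold, and how replicates were combined, were not given in the sources used here. Of 3295 peaks, 3294 on 19 autosomes and X were used. Genes came from RefSeq GRCm38.p6, without strand, leaving out genes that start below 3000000. Distance ran from the peak midpoint to the nearer gene end. Strand and transcript starts came from the RefSeq promoter table. Read depth is unknown, and no test was made. Linking was tested on simulated peaks. Calculations used Python 3.11.15, pandas 2.3.3 and numpy 2.4.6.

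The members and gene lists were chosen with earlier results of these data known. Genes named were all members with a peak within 10 kb, the nearest member of each family, members with 3 or more peaks within 100 kb, those on either side of a window edge, and listed genes outside the rule with a peak within 10 kb. Other genes were named after their values were seen, and some genes are not reported here.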

Additional observations from a re-analysis of the deposited data

How the results depend on the processing

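Whether replicates differ at these genes cannot be judged from 1 list. No paired analysis was possible because positions alone, without values by replicate, were used, and no replicate could be left out. Genes with a peak within 10 kb numbered 23 and ranged from 21 (window of 5 kb) to 28 (20 kb) over 8 alternatives; with only the wider peaks there were again 23, while the share of all protein-coding genes fell from 3.92% to 2.30%. Genes with a peak within 100 kb numbered 59 and ranged from 41 to 76 over 7 alternatives. At 50 kb they were 41 (24.3%, against 12.5% of all protein-coding genes), and at 200 kb 76 (45.0%, against 34.2%). When a peak was linked only to its nearest protein-coding gene, 33 were left (19.5%, against 7.94%), since a shared peak then counts for 1 gene and some peaks lay nearer to a gene outside the rule. Without the Hox clusters 41 of 130 genes remained (31.5%), and all 52 distinct peaks. Distinct peaks, their median widths, and, chosen after seeing the data, peaks with a member as nearest gene (32 to 40) and promoters under a peak (5 with wider peaks) moved by less than 1.5 times.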
